A study of Mus musculus with 80 samples.

Results

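The Schlafen genes analysed here are Slfn1, Slfn2, Slfn3, Slfn5, Slfn8 and Slfn9, 6 of the 41388 mouse genes in the deposited table of the age series and of the 40481 in the table of the genotype series. They were taken by name, and the family was chosen by a measured value in part, the higher Slfn2 RNA level in libraries with a Flt3 ITD allele, so that contrast is described here without a test. The study sequenced bulk RNA of blood-forming stem cells (HSC) and of the progenitors they give rise to (HPC), from mice on the B6 background, in 80 libraries and 20 groups. In the age series, HSC were taken at E14.5 (called E14, 3 libraries), E16.5 (E16, 4) and E18.5 (E18, 3) of gestation, at birth (P0, 4), at postnatal days 7 (P7, 4) and 14 (P14, 4), and from 8-week-old adults (4). HPC were taken at E16 (3), P0 (4), P7 (4), P14 (5) and from adults of 8 weeks (4), and no genotype is labelled in this series. At P0, HSC and HPC labelled Ifnar -/- (4 and 4 libraries) were set against HSC and HPC labelled wild type (5 and 4). At P14, HPC came in 4 genotypes. These were Ifnar -/-, Flt3 ITD/+ (5 libraries), Ifnar +/-, Flt3 ITD/+ (4), Ifnar -/-, Flt3 +/+ (4) and Ifnar +/-, Flt3 +/+ (4). Every P14 genotype group therefore carries at least one altered Ifnar allele, and none is wild type. Flt3 ITD is an internal tandem duplication of the receptor tyrosine kinase Flt3 that makes it signal without its ligand. The labels do not say which chain of the type I interferon receptor was deleted, how the cells were sorted, which organ they came from, or whether animals were pooled. Nothing says that libraries of a group came from separate animals, so the p-values measure the spread between these libraries, which may be technical.

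Schlafen proteins fall into 3 subgroups by their length. Slfn1 and Slfn2 are short proteins with only the core Schlafen domain, Slfn3 belongs to an intermediate subgroup, and Slfn5, Slfn8 and Slfn9 are long proteins that also carry a helicase-like region. Several mouse Schlafen genes are known to be induced by type I interferon, which signals through a receptor at the cell surface, and members of the family bind or cut transfer RNA. In mice, loss of Slfn2 function causes T cells and monocytes to lose quiescence and die more readily, and the family is known in blood cells for limiting growth.

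In the RefSeq order on chromosome 11 (assembly GRCm38.p6), the genes run Slfn5, Slfn9, Slfn8, the pseudogene Slfn10-ps, Slfn2, Slfn1, Slfn4, Slfn3 and Slfn14. All 6 members had an entry in the RefSeq promoter table, which gives 250 bases before and 50 bases after each annotated start, and Slfn8 had an entry for each of 2 starts. The promoters of Slfn5 (chr11:82951852-82952151, plus strand), Slfn8 (chr11:83020761-83021060, minus strand), Slfn9 (chr11:82991781-82992080, minus strand) and Slfn2 (chr11:83064862-83065161, plus strand) are shown because their RNAs differed in unlike ways between the libraries labelled Ifnar -/- and their counterparts, as described below. Capitals mark matches to the core of the interferon-stimulated response element, searched as GAAA, any 2 bases and GAAA, and for the other strand as TTTC, any 2 bases and TTTC.
Slfn5: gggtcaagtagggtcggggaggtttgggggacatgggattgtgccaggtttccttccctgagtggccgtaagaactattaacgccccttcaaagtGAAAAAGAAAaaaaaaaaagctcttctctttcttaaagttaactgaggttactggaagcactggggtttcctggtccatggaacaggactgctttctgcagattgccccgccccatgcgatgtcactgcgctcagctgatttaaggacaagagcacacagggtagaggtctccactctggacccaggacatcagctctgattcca
Slfn8: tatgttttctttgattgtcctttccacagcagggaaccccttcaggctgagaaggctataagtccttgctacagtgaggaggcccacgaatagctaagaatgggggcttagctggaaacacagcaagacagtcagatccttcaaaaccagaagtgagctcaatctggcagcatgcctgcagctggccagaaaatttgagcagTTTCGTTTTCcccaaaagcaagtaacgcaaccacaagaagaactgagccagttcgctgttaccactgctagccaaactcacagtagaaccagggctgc
Slfn9: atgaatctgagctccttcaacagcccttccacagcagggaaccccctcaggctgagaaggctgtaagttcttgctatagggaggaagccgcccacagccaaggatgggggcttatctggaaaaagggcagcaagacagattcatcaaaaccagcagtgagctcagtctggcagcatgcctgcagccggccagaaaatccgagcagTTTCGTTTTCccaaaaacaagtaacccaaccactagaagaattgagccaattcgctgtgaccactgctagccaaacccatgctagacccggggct
Slfn2: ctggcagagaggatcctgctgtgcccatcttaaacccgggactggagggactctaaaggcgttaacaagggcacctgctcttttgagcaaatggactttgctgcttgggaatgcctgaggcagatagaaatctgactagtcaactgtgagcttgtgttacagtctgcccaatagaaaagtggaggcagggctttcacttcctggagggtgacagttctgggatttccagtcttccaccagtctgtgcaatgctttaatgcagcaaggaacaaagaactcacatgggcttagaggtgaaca

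The match in Slfn5 lies at positions -155 to -146 from the annotated start, the match in Slfn8 at -48 to -39 and the match in Slfn9 at -45 to -36. Slfn8 and Slfn9 carried the identical 10 letters, TTTCGTTTTC, and their promoters were 80.8% identical, against 47.3% to 53% for every other pair of members. The windows of Slfn1, Slfn2 and Slfn3 held no match to these letters. The same search matched 1131 of the 32851 promoters of the table, or 3.44%. The core of the gamma-activated site, searched as TTCNNNGAA, which reads alike on both strands, matched 2726 promoters or 8.3% of them and none of the Schlafen windows. A match describes letters in this window and no more.

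The transcripts of several members share long stretches, and how the authors' counting treated reads that fit more than 1 gene is not given in the sources used here. Of the 50-base words in GENCODE M21 transcripts, 14.6% of those of Slfn8 and 11.9% of those of Slfn9 also occur in another gene, mostly Slfn10-ps or each other. The share was 16% for Slfn3, mostly with Slfn4, 11.1% for Slfn5, mostly with the overlapping antisense gene Slfn5os, 4.27% for Slfn2 and 0.606% for Slfn1. Since the strand setting of the counting is not stated, reads of Slfn5 and Slfn5os cannot be told apart. The levels of Slfn3, Slfn8 and Slfn9 are uncertain to the extent of their shared stretches.

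Levels are given as RPKM, reads scaled by exon length and by the library's read total, in the order of the replicate numbers. A gene was called where its adjusted p was under 0.05 in a fit over all genes tested. These fits used limma on log2(RPKM + 0.5) for the HSC ages and for HSC against HPC, and edgeR's quasi-likelihood test on counts for the HPC ages and the genotypes. Adjusted p-values are Benjamini-Hochberg values over all genes of that fit, and a log2 fold change comes with its standard error (SE). Sequencing depth ran from 6.95 to 25.382 M reads in the age series (M, 1e6 reads), from 11.683 to 46.303 M at P0 in the genotype series and from 58.4 to 92.1 M at P14. The defining markers of HSC and HPC were present in every group, with 9 or 10 of the 10 listed above a median of 1 RPKM. In bulk RNA, fewer cells of a type and less RNA per cell cannot be told apart.

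Slfn2 was read in all 80 libraries, between 2.65 and 314.5 RPKM, and was the most abundant member by far in HSC. It made up 77.1% to 93.9% of the summed RPKM of the 6 members in the HSC libraries of the age series. In adult HPC and in P14 HPC labelled Ifnar -/-, Flt3 +/+, Slfn8 and Slfn9 averaged more than Slfn2. In the latter group the means were 5.18 RPKM for Slfn8, 10.8 RPKM for Slfn9 and 3.86 RPKM for Slfn2. Slfn9 ranged from 2.38 to 19.8 RPKM, Slfn8 from 1.57 to 20.9 RPKM, Slfn5 from 0 to 8.46 RPKM and Slfn3 from 0.501 to 6.0 RPKM. Slfn1, a short member first described in developing T cells, was close to absent. It had 89 reads over the 80 libraries, in 19 of them, and reached at most 0.328 RPKM in 1 adult HSC library. It passed no filter on low values, so 5 of the 6 members were tested in every comparison, and no count below covers Slfn1.

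In HSC, the main step in the age series came between E16 and E18, when Slfn2, Slfn5 and Slfn8 rose together and Slfn3 and Slfn9 were not called. Slfn2 stood at 60.6, 57.7 and 68.5 RPKM at E14, at 73.1, 74.6, 80.8 and 97.6 RPKM at E16, and at 314.5, 279.6 and 277.3 RPKM at E18. Every E18 library lay far above every younger one. The later HSC libraries had 139, 125, 157 and 158 RPKM at P0, 109.9, 109.5, 131 and 122 RPKM at P7, 167, 263, 257 and 181 RPKM at P14, and 154, 189.6, 150.3 and 157 RPKM in adults. After E18 no library returned to the level of E14 or E16.

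Slfn2 averaged 290.5 ± 20.9 RPKM at E18 and 81.5 ± 11.2 RPKM at E16 (SD, n = 3 and 4), a 3.49-fold rise (log2 fold change 1.80, SE 0.14, limma adjusted p = 4.91e-09). Slfn5, a long member known as an interferon-induced regulator of transcription, rose with it. It had 4.40, 2.83 and 2.93 RPKM at E18, against 0.407, 0.339, 0.374 and 1.08 RPKM at E16, a 3.70-fold rise on the log2(RPKM + 0.5) scale (log2 fold change 1.89, SE 0.32, limma adjusted p = 0.000463). That scale understates changes near 0.5 RPKM, and on the recovered reads edgeR gave a log2 fold change of 2.58. The groups did not overlap, although the fourth E16 library sat well above its 3 companions. Slfn8 had 17.7, 12.3 and 14.48 RPKM at E18, against 1.86, 5.18, 4.28 and 5.94 RPKM at E16, a 3.29-fold rise (log2 fold change 1.72, SE 0.30, limma adjusted p = 0.000578). Again every E18 library was above every E16 library. Slfn9 gave 13.7, 12.4 and 9.91 RPKM at E18, against 12.3, 13.3, 10.8 and 11.3 RPKM at E16, overlapping ranges with a log2 fold change of -0.03 (SE 0.24, limma adjusted p = 0.973). Slfn3 was also within its spread (log2 fold change 0.13, SE 0.30, limma adjusted p = 0.866). The 3 of 5 tested members called in this step compare with 5.3% of the 13375 genes tested. None of the 5 was called between E14 and E16, when 0.0523% of all genes were.

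Of 52 interferon response genes, a list that holds no Schlafen member, 46 rose and 0 fell between E16 and E18, with a median log2 fold change of 1.179, where the median of all genes tested lay between -0.062 and 0.075 in every comparison made here. The 4 with the smallest adjusted p included Rtp4 (log2 fold change 2.44, limma adjusted p = 4.91e-09), a brake on interferon signalling, the RNA sensor gene Oas1a (1.80, limma adjusted p = 4.91e-09), and Xaf1 (1.89, limma adjusted p = 3.07e-08). Of the macrophage markers, 1 of 7 tested was higher in the same step, and their summed level was 74.75 to 82.71 RPKM at E18 against 43.92 to 67.23 RPKM at E16. Of the erythroid markers, 1 of 3 was lower. The granulocyte genes Mpo and Elane were looked at after values were seen. Mpo was 1.967 to 4.273 RPKM at E18 against 19.9 to 82.17 RPKM at E16, without overlap. Elane was 0.3279 to 2.153 against 0.06318 to 71.93 RPKM, with overlapping ranges. The part of all these genes in the Schlafen change was not tested.

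At P0, Slfn2, Slfn3 and Slfn8 were lower than at E18, 3 of 5 tested members against 4.87% of all genes. Slfn2 averaged 145 ± 15.8 RPKM at P0 and 290.5 ± 20.9 RPKM at E18 (SD, n = 4 and 3), a 2.00-fold fall (log2 fold change -1.0, SE 0.14, limma adjusted p = 7.42e-05). Slfn3 had 1.49, 1.56, 0.501 and 1.30 RPKM at P0, against 3.78, 3.93 and 4.52 RPKM at E18 (log2 fold change -1.46, SE 0.30, limma adjusted p = 0.00447). Its P0 libraries were all below its E18 libraries. Slfn8 fell to 9.74, 5.05, 8.92 and 5.35 RPKM at P0 (log2 fold change -1.01, SE 0.30, limma adjusted p = 0.0454), and that call was lost in 5 of 7 fits that each left out 1 library, with adjusted p up to 0.155. Slfn5 (log2 fold change -0.78, limma adjusted p = 0.174) and Slfn9 (-0.78, limma adjusted p = 0.0587) were lower without passing the threshold. Wild-type P0 HSC of the genotype series had 13.3 to 16.9 RPKM of Slfn8, within the E18 range of 12.3 to 17.7 RPKM. Their Slfn5 (4.53 to 8.46 RPKM), Slfn9 (8.65 to 14.4 RPKM) and Slfn3 (2.05 to 3.55 RPKM) also lay above the P0 libraries of the age series. Slfn2 overlapped them (117 to 185 RPKM). The series were not tested against each other. Between E18 and P0 of the age series, 15 of 52 interferon response genes fell and 0 rose. Of the markers of other cells, 1 of 7 for macrophages (summed 114.4 to 164.2 RPKM at P0 against 74.75 to 82.71 RPKM at E18), 1 of 5 for megakaryocytes (183.2 to 218.9 against 142 to 153.3 RPKM) and 1 of 4 for T and NK cells (47.08 to 62.18 against 23.84 to 36.48 RPKM) were higher at P0. Mpo was 8.155 to 76.47 RPKM at P0 against 1.967 to 4.273 RPKM at E18. Elane was 0.1279 to 178.7 against 0.3279 to 2.153 RPKM, with overlapping ranges. The part of all these genes in the Schlafen changes was not tested.

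Slfn2 rose again in HSC between P7 and P14, the only member called in that step against 1.73% of all genes. It averaged 217 ± 50.2 RPKM at P14 and 118 ± 10.4 RPKM at P7 (SD, n = 4 each), a log2 fold change of 0.84 (SE 0.13, limma adjusted p = 0.000987). Its P14 libraries were all above its P7 libraries. Slfn5 was 2.12, 2.45, 2.84 and 1.93 RPKM at P14, against 0.741, 1.36, 0.595 and 0.67 RPKM at P7, with no overlap and a log2 fold change of 1.09 (SE 0.30) that missed the threshold (limma adjusted p = 0.0555), and passed it without P7 replicate 2 (adjusted p = 0.0432). In this step 3 of 52 interferon response genes rose and 0 fell. No member was called between P0 and P7, when 6.01% of all genes were, or between P14 and adult, when 5.35% were.

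Over the whole span, Slfn2, Slfn5 and Slfn8 were higher in adult HSC than in E16 HSC. Slfn2 was 2.01-fold higher (log2 fold change 1.01, SE 0.13, limma adjusted p = 1.08e-06), Slfn5 was 2.85-fold higher (1.51, SE 0.30, limma adjusted p = 0.000348, and 2.14 with edgeR on the recovered reads), and Slfn8 was 2.96-fold higher (1.57, SE 0.27, limma adjusted p = 9.12e-05). Slfn5 had 1.57, 2.77, 2.38 and 2.94 RPKM and Slfn8 9.13, 13.4, 14.53 and 14.8 RPKM in adults, all above the E16 libraries. Slfn3 was lower in adults (1.34, 1.27, 1.88 and 3.58 RPKM, against 4.13, 3.38, 3.50 and 3.45 RPKM at E16) with overlapping ranges (log2 fold change -0.78, SE 0.28, limma adjusted p = 0.0387), a call lost in 7 of 8 fits without 1 library, with adjusted p up to 0.127. The 4 of 5 tested members called in this comparison stand beside 24.5% of all genes. Of the interferon response list, 37 of 52 genes rose and 0 fell (median log2 fold change 0.807). Markers of other cells differed too, with 4 of 7 macrophage markers higher and 1 lower (summed 52.35 to 92.92 RPKM in adults against 43.92 to 67.23 RPKM at E16) and 3 of 5 megakaryocyte markers higher (220.8 to 272.5 against 124.4 to 144.4 RPKM). Of the T and NK cell markers 1 of 4 was higher (89.13 to 112.3 against 25.86 to 47.38 RPKM). Cd3e, Cd8a and Ncr1 of this list were at 0 in both groups, so other members of the list carried the sum. Mpo was 0.5574 to 3.094 RPKM in adults against 19.9 to 82.17 RPKM at E16, without overlap. Elane was 0.04714 to 4.429 against 0.06318 to 71.93 RPKM, with overlapping ranges. The part of all these markers in the Schlafen changes was not tested.

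The titles of the HSC libraries carry code prefixes, one shared by E14, E16 and E18, another by P7 and P14, and another by P0 and adult. The labels do not say what a prefix stands for, and across prefixes it cannot be told apart from age. The rise from E16 to E18 and that from P7 to P14 lay within a prefix, while the fall from E18 to P0 and the difference between adult and E16 did not. Within the prefix shared by adult and P0, Slfn2 showed a log2 fold change of 0.21 (SE 0.13, limma adjusted p = 0.288). In that comparison, added after the data were seen, Slfn8 (log2 fold change 0.86, limma adjusted p = 0.0249) and Slfn9 (0.70, limma adjusted p = 0.0243) were higher in adults, 2 of 5 tested members against 21.2% of all genes. Both calls were lost in some fits without 1 library, 5 of 8 for Slfn8 and 3 of 8 for Slfn9.

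**Figure D1:**
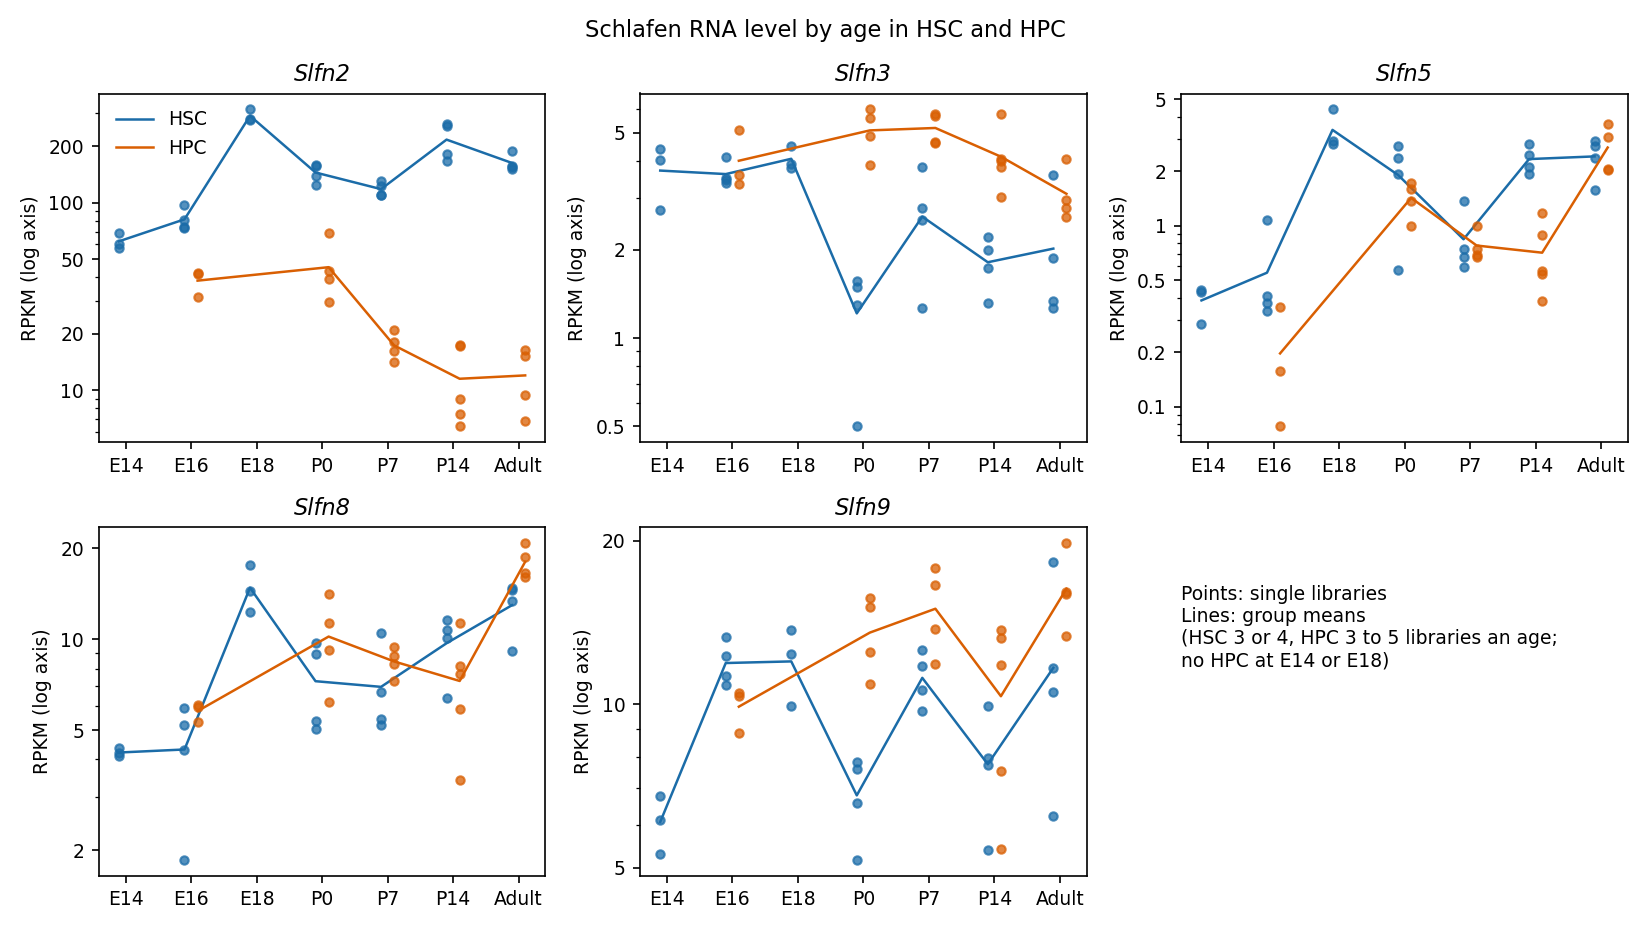
RNA level in RPKM (y, log axis) of the 5 tested Schlafen genes by age (x) in HSC and HPC, with points for single libraries and lines through group means. Slfn2 is higher in HSC than in HPC at every shared age and peaks in HSC at E18 (277.3 to 314.5 RPKM), while Slfn5 and Slfn8 are at their highest HPC mean in adults.

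In HPC the members moved apart, since Slfn2 fell with age while Slfn5 and Slfn8 rose. Slfn2 had 31.3, 42.4 and 41.5 RPKM at E16, 39.3, 69.1, 43.4 and 29.4 RPKM at P0, 16.2, 18.2, 14.2 and 20.9 RPKM at P7, 17.2, 17.4, 6.42, 7.52 and 9.04 RPKM at P14 and 6.83, 16.48, 9.39 and 15.3 RPKM in adults. The P7 libraries and all later ones lay below every E16 and P0 library. Adult HPC averaged 12 ± 4.64 RPKM and E16 HPC 38.4 ± 6.17 RPKM (SD, n = 4 and 3), a 3.53-fold fall (log2 fold change -1.82, SE 0.37, edgeR adjusted p = 0.00098). Between P0 and P7 alone the log2 fold change was -1.41 (SE 0.35, edgeR adjusted p = 0.0383), 1 of 5 tested members against 1.5% of all genes. That call was lost in 7 of 8 fits without 1 library, with adjusted p up to 0.19 without P0 replicate 2.

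Slfn5 was nearly silent in E16 HPC and rose at P0 and again in adults. It had 0.158, 0.0781 and 0.356 RPKM at E16, 1.37, 1.73, 1.60 and 0.999 RPKM at P0, 1.0, 0.745, 0.689 and 0.675 RPKM at P7, 0.542, 0.561, 0.385, 0.885 and 1.18 RPKM at P14 and 2.04, 3.08, 2.06 and 3.64 RPKM in adults. Every P0 library exceeded every E16 library (log2 fold change 2.98, SE 0.41, edgeR adjusted p = 0.000293), the only member called in that step against 3.27% of all genes. Adults exceeded P14 by a log2 fold change of 1.71 (SE 0.30, edgeR adjusted p = 0.000368), and E16 by 13.5-fold (log2 fold change 3.76, SE 0.42, edgeR adjusted p = 1.06e-06).

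Slfn8 had 5.34, 6.04 and 5.98 RPKM at E16, 9.19, 14.2, 11.3 and 6.21 RPKM at P0, 8.83, 8.27, 9.44 and 7.25 RPKM at P7, 3.41, 5.89, 7.65, 11.3 and 8.13 RPKM at P14 and 18.7, 16.1, 16.6 and 20.9 RPKM in adult HPC. The adult libraries were above all others. They averaged 18.1 ± 2.18 RPKM and the E16 libraries 5.79 ± 0.390 RPKM (SD, n = 4 and 3), a 2.82-fold rise (log2 fold change 1.5, SE 0.26, edgeR adjusted p = 0.000218). Adults were also above P14 (log2 fold change 1.10, SE 0.22, edgeR adjusted p = 0.0011), as in each of 9 fits without 1 library (0.92 to 1.26). Slfn9 was 19.8, 13.4, 16.1 and 16 RPKM in adults, against 10.5, 8.87 and 10.3 RPKM at E16 (log2 fold change 0.58, SE 0.21, edgeR adjusted p = 0.0468), a call lost in 6 of 7 fits without 1 library and under all 4 other settings tried. Slfn3 was lower in adults than at P14 (4.07, 2.77, 2.96 and 2.58 RPKM, against 3.82, 3.02, 4.08, 4.02 and 5.78 RPKM), with a log2 fold change of -0.64 (SE 0.20, edgeR adjusted p = 0.0198) that was not called without adult replicate 4 (adjusted p = 0.0702).

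Between adult and E16 HPC, 4 of 5 tested members were called (Slfn2 lower, Slfn5, Slfn8 and Slfn9 higher), beside 27% of the 14754 genes tested. Between adult and P14 HPC, 3 of 5 were called beside 28.9% of all genes. These groups also differed in granulocyte genes, and Kit, Mpo and Elane were looked at after values were seen. Mpo, the myeloperoxidase gene, was 204.2 to 305.7 RPKM in adults against 494 to 4414 RPKM at P14, Elane, the neutrophil elastase gene, 18.6 to 53.9 against 135.6 to 3060 RPKM, and 3 of 6 neutrophil markers were lower in adults (summed 14.01 to 46.26 against 3.865 to 274.2 RPKM). Kit ran from 64.9 to 217.9 RPKM and Flt3 from 22.4 to 189.6 RPKM among the P14 libraries. No member was called between P7 and P14, when 9.84% of all genes were. In adults relative to E16, 45 of 52 interferon response genes rose and 0 fell, with a median log2 fold change of 1.103. Nlrc5, an activator of MHC class I genes, led with a log2 fold change of 3.60 (edgeR adjusted p = 5.44e-08), followed by Ifi44 (4.58, edgeR adjusted p = 6.07e-08) and the exonuclease gene Isg20 (1.94, edgeR adjusted p = 1.25e-07). In HPC, as in HSC, the code prefix of the titles differs between ages, here with one letter for each age, and cannot be told apart from age. Markers of other cells differed as well. In adult HPC 6 of 9 macrophage markers were higher, with a summed 42.18 to 93.08 RPKM against 17.19 to 37.35 RPKM at E16. The T and NK cell list summed to 555.1 to 672.8 RPKM in adults against 122.6 to 139.3 RPKM at E16. Cd3e, Cd8a and Ncr1 of this list were at 0 in all of these libraries, so other members of the list carried the sum. The part of all these markers in the Schlafen changes was not tested.

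Slfn2 was higher in HSC than in HPC at each of the 5 shared ages, and the log2 difference grew from age to age up to P14. The log2 difference was 1.0 at E16 (SE 0.28, limma adjusted p = 0.00748), 1.62 at P0 (SE 0.26, limma adjusted p = 2.64e-06), 2.69 at P7 (SE 0.26, limma adjusted p = 4.13e-11), 4.08 at P14 (SE 0.24, limma adjusted p = 3.17e-17) and 3.82 in adults (SE 0.26, limma adjusted p = 1.99e-15). No HSC library overlapped an HPC library at any of these ages. In adults the mean was 163 ± 18.1 RPKM in HSC and 12 ± 4.64 RPKM in HPC (SD, n = 4 each), a 14.1-fold difference. The E16 difference was not called without HPC E16 replicate 1 (adjusted p = 0.0521). The test of the difference itself, the change from E16 to adult in HSC minus that in HPC, gave 2.82 for Slfn2 (SE 0.38, limma adjusted p = 1.54e-06), 1 of 5 tested members against 4.25% of all genes. For Slfn5 it was -0.63 (SE 0.38, limma adjusted p = 0.411), for Slfn8 0.11 (SE 0.39, limma adjusted p = 0.92), for Slfn9 -0.68 (SE 0.32, limma adjusted p = 0.243) and for Slfn3 -0.36 (SE 0.35, limma adjusted p = 0.649).

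Slfn3 ran the other way after birth. At P0 it had 1.49, 1.56, 0.501 and 1.30 RPKM in HSC, against 6.0, 3.88, 5.60 and 4.87 RPKM in HPC, 3.56-fold lower in HSC on the log2(RPKM + 0.5) scale (log2 difference -1.83, SE 0.23, limma adjusted p = 3.07e-08). It stayed lower in HSC at P7 (-0.99, SE 0.23, limma adjusted p = 0.000729) and P14 (-1.16, SE 0.22, limma adjusted p = 5.08e-05), with no overlap, and was not called at E16 or in adults. Slfn9 was lower in HSC at P0, with 6.59, 7.82, 5.17 and 7.59 RPKM in HSC against 15.7, 10.9, 12.5 and 15.1 RPKM in HPC (log2 difference -1.05, SE 0.21, limma adjusted p = 0.000112). At P14 its difference of -0.52 (SE 0.20, limma adjusted p = 0.0409) was lost in 6 of 9 fits without 1 library. Slfn5 was called at P14 alone, higher in HSC (1.14, SE 0.25, limma adjusted p = 0.000232), and Slfn8 at none of the 5 ages. The members called between the cell types were 1 of 5 at E16, 3 of 5 at P0, 2 of 5 at P7, 4 of 5 at P14 and 1 of 5 in adults, beside 23.3%, 38.6%, 41.2%, 37% and 28.5% of the 14317 genes tested. At P14, Mpo was 2.42 to 3.98 RPKM in HSC against 494 to 4414 RPKM in HPC, Elane 0 to 5.03 against 135.6 to 3060 RPKM, and 1 of 6 neutrophil markers was lower in HSC (summed 9.585 to 17.07 against 3.865 to 274.2 RPKM). The Slfn2 difference at P14 was called in each of 9 fits without 1 library and under 5 other settings, with an adjusted p of at most 2.31e-15 over these fits, and the part of the granulocyte genes in it was not tested. Megakaryocyte markers also differed between the cell types in adults, with 5 of 5 higher and a summed 220.8 to 272.5 RPKM in HSC against 36.34 to 77.86 RPKM in HPC. HSC and HPC libraries carry different code prefixes, which cannot be told apart from cell type, and the authors deposited HSC as RPKM and HPC as counts.

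**Figure D2:**
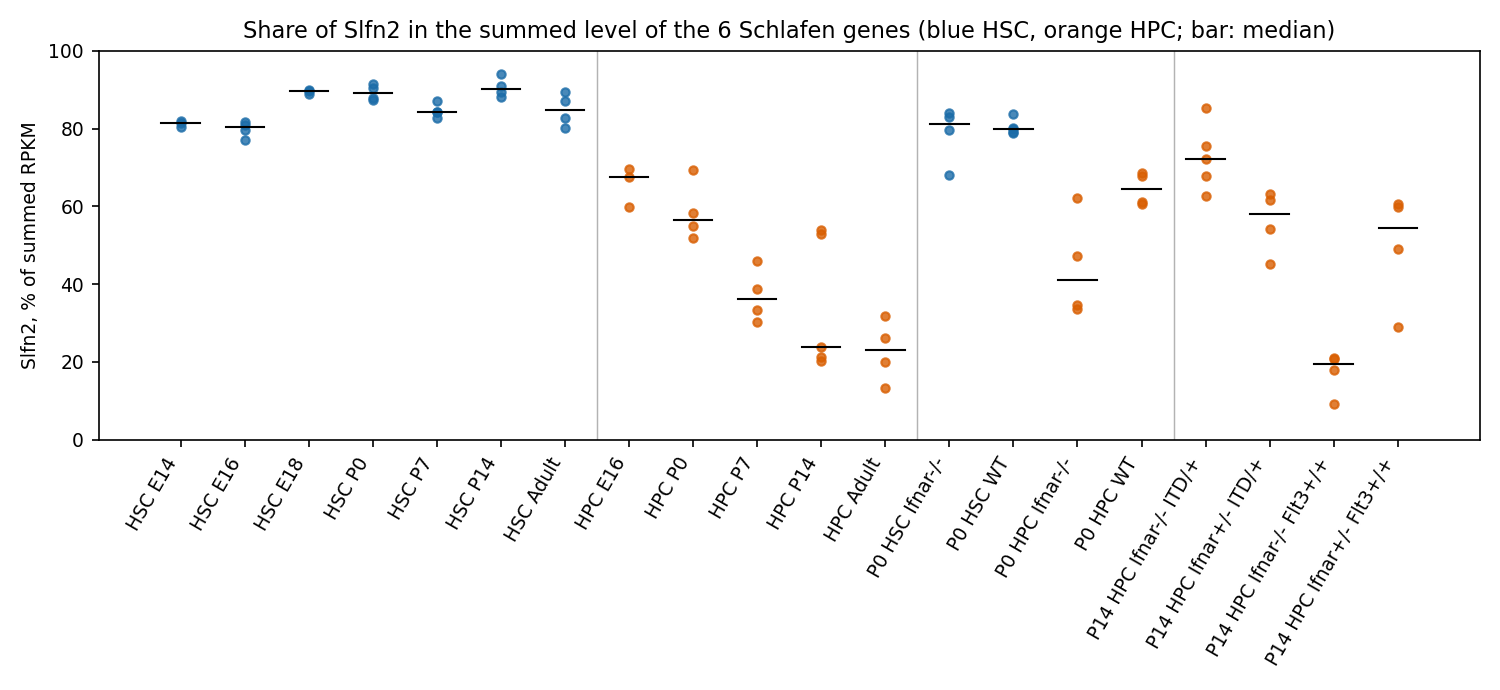
Share of the summed RPKM of the 6 members that Slfn2 accounts for (y, percent) in each group (x), with points for libraries and a line at the median. The share stays at 77.1% or more in HSC of the age series and has a median of 67.4% in HPC at E16 and 23.1% in adult HPC.

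The make-up of the family RNA differed between the cell types. The median share of Slfn2 in the summed RPKM of the members was 67.4% at E16, 56.6% at P0, 36.2% at P7, 23.9% at P14 and 23.1% in adults in HPC. In HSC the group medians lay between 80.3% and 90.2%. In adult HPC, Slfn8 and Slfn9 were each at a mean level above that of Slfn2, at 18.1 ± 2.18 and 16.3 ± 2.67 RPKM against 12 ± 4.64 RPKM (SD, n = 4), although the libraries of both overlapped those of Slfn2.

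The P0 genotype groups set libraries labelled Ifnar -/- against libraries labelled wild type. Ifnar1 RNA was 11.7, 9.88, 11.5 and 11.9 RPKM in HSC labelled Ifnar -/-, against 11.8, 11.8, 12.7, 8.77 and 8.69 RPKM in wild-type HSC (log2 fold change 0.08, SE 0.12, edgeR adjusted p = 0.873). In HPC it was 14.54, 14.96, 14.56 and 13.3 RPKM in the libraries labelled Ifnar -/-, against 9.16, 9.22, 9.43 and 13.5 RPKM in wild type (log2 fold change 0.41, SE 0.14, edgeR adjusted p = 0.0774). The RNA of this receptor gene was therefore not lower in the libraries labelled Ifnar -/-, and a count over a whole gene does not check a deletion of part of it. The mean log2 level of the 52 interferon response genes did separate the labels, at 2.23 to 2.53 in HSC labelled Ifnar -/- against 4.37 to 5.02 in wild-type HSC, and at 2.10 to 2.27 in HPC labelled Ifnar -/- against 4.21 to 4.77 in wild-type HPC.

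Slfn5 and Slfn8 were lower in both cell types labelled Ifnar -/-, Slfn2 was lower in HPC, and Slfn3 and Slfn9 were called in neither. Slfn5 had 0.463, 0.234, 0.173 and 0.385 RPKM in HSC labelled Ifnar -/-, against 5.03, 4.76, 5.01, 4.53 and 8.46 RPKM in wild-type HSC. It was close to silent in all 4 libraries, and the groups were far apart. The fall was 17.7-fold (log2 fold change -4.15, SE 0.32, edgeR adjusted p = 4.53e-06). In HPC, Slfn5 had 0.483, 0.194, 0.12 and 0 RPKM in the libraries labelled Ifnar -/-, against 3.61, 2.39, 4.6 and 3.94 RPKM in wild type, a 19.2-fold fall (log2 fold change -4.27, SE 0.58, edgeR adjusted p = 0.000536). No library overlapped. Without replicate 1 labelled Ifnar -/- the log2 fold change was -5.16, since the remaining libraries were lower still.

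Slfn8 had 2.15, 2.86, 5.25 and 4.75 RPKM in HSC labelled Ifnar -/-, against 13.3, 14.1, 14, 13.7 and 16.9 RPKM in wild-type HSC, a 3.87-fold fall (log2 fold change -1.95, SE 0.23, edgeR adjusted p = 0.000194). In HPC it had 1.57, 1.78, 2.86 and 4.23 RPKM in the libraries labelled Ifnar -/-, against 5.43, 8.36, 9.59 and 12.5 RPKM in wild type, a 3.59-fold fall (log2 fold change -1.85, SE 0.31, edgeR adjusted p = 0.00251). Neither pair of groups overlapped. Slfn8 thus kept a measurable level where Slfn5 came close to 0.

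Slfn2 had 17.8, 12.5, 7.25 and 9.62 RPKM in HPC labelled Ifnar -/-, against 38.2, 34.2, 58.2 and 49.0 RPKM in wild-type HPC, with no overlap. This was a 3.99-fold fall (log2 fold change -2.00, SE 0.26, edgeR adjusted p = 0.000355). In HSC it had 23.6, 39.5, 76.8 and 97.9 RPKM in the libraries labelled Ifnar -/-, against 117, 117, 121, 185 and 158 RPKM in wild type. All 4 were below all 5, but they spread over more than the gap between the groups, and the log2 fold change of -1.26 (SE 0.33) missed the threshold (edgeR adjusted p = 0.118). It passed without replicate 4 labelled Ifnar -/- (log2 fold change -1.60, edgeR adjusted p = 0.0303), with DESeq2 (adjusted p = 0.00456) and without a filter on low counts (edgeR adjusted p = 0.0108). With the replicate number as a block, it was -1.34 (edgeR adjusted p = 0.0173), although these numbers do not pair the libraries.

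Slfn9, whose promoter carries the same matched letters as that of Slfn8, had 5.71, 8.50, 7.95 and 10.4 RPKM in HPC labelled Ifnar -/-, against 5.75, 8.24, 8.24 and 10.2 RPKM in wild type (log2 fold change -0.06, SE 0.20, edgeR adjusted p = 0.881). In HSC it had 5.92, 4.40, 7.83 and 11.2 RPKM in the libraries labelled Ifnar -/-, against 8.65, 9.83, 9.19, 14.4 and 13.3 RPKM in wild type, with overlapping ranges (log2 fold change -0.62, SE 0.25, edgeR adjusted p = 0.474). Slfn3 gave a log2 fold change of -0.13 in HSC (edgeR adjusted p = 0.89) and of -0.27 in HPC (edgeR adjusted p = 0.483). The members called, all of them lower, were 2 of 5 tested in HSC, where 1.14% of 16224 genes were called in either direction, and 3 of 5 in HPC, where 10.4% of 12988 genes were. None of the 5 was called in the test of the difference between the 2 cell types, which called 1.7% of all genes. For Slfn2 the effect in HSC minus that in HPC was 0.74 (SE 0.45, edgeR adjusted p = 0.471).

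**Figure D3:**
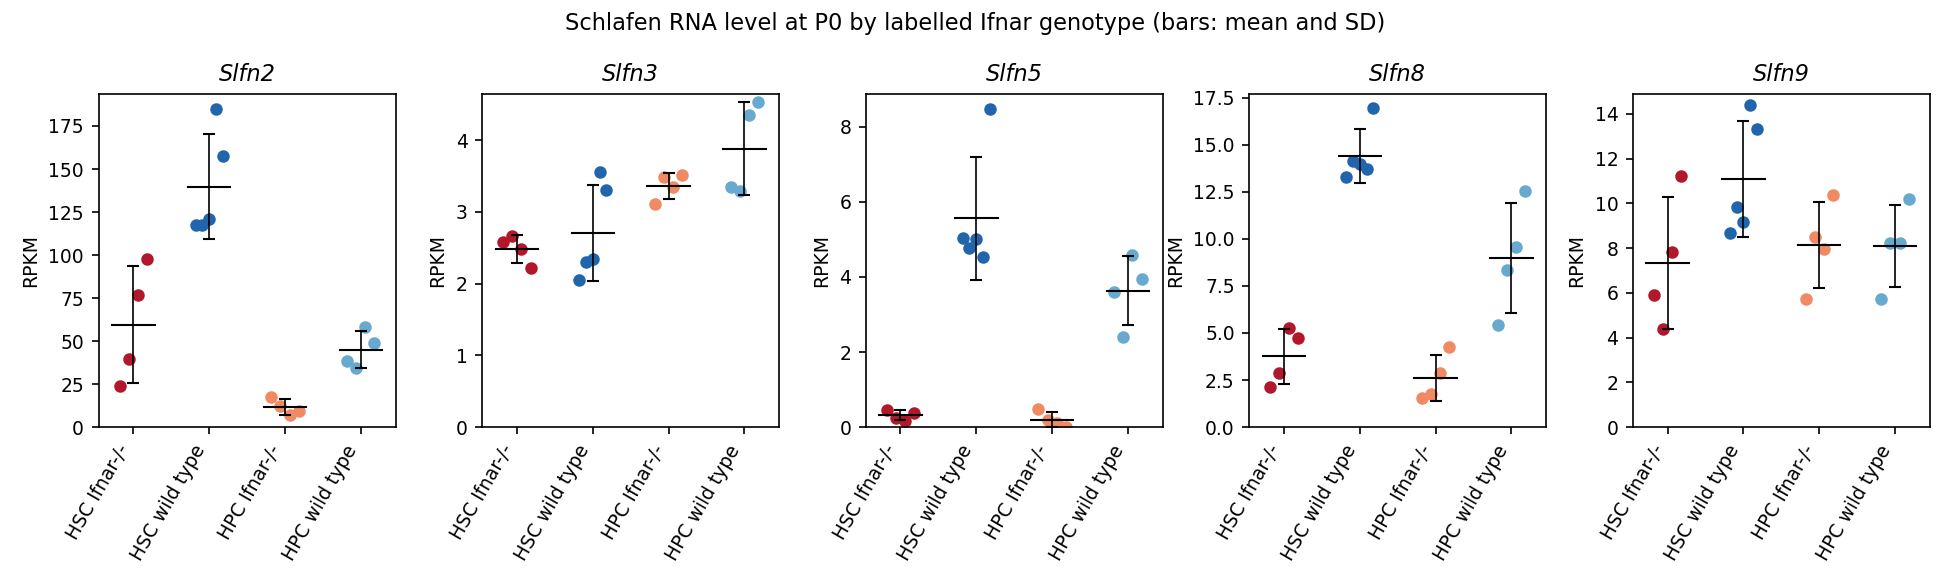
RNA level in RPKM (y) of the 5 tested Schlafen genes at P0 in HSC and HPC labelled Ifnar -/- and in wild-type HSC and HPC (x), with points for libraries and bars for mean and SD. Slfn5 is at 0 to 0.483 RPKM in the libraries labelled Ifnar -/- and at 2.39 to 8.46 RPKM in wild type, while the Slfn9 groups overlap.

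Of the 52 interferon response genes, 46 were lower and 0 higher in HSC labelled Ifnar -/- (median log2 fold change -1.946), and 50 were lower and 0 higher in HPC (median -2.072). Those with the smallest adjusted p in HPC included Ifi27 (log2 fold change -4.93, edgeR adjusted p = 2.29e-09), Rtp4 (-6.47, edgeR adjusted p = 1.53e-08) and Irf7 (-5.26, edgeR adjusted p = 1.2e-07), a transcription factor that amplifies interferon expression. Markers of other cell types also differed between the HPC groups. All 4 tested erythroid markers were higher, with a summed 11.87 to 49.46 RPKM in HPC labelled Ifnar -/- against 5.772 to 6.462 RPKM in wild type, and 3 of 5 megakaryocyte markers were higher (201 to 369.4 against 103.3 to 160.4 RPKM). Of the macrophage markers 3 of 7 were lower (17.86 to 45.44 against 51.08 to 65.25 RPKM), as were 3 of 3 B cell markers (91.14 to 115 against 114.8 to 157.2 RPKM). Mpo was 85.57 to 101.5 RPKM in HPC labelled Ifnar -/- against 306.5 to 462.7 RPKM in wild type. Cd34, a listed marker of HSC and HPC, was 334.9 to 430.8 against 530.7 to 560.2 RPKM. Kit was 134.2 to 155 against 73.27 to 136.6 RPKM, with overlapping ranges. In HSC, 2 of 9 macrophage markers were lower, while the summed level of the list was 83.86 to 106.9 RPKM in the libraries labelled Ifnar -/- and 47.74 to 100.2 RPKM in wild type, with overlapping ranges. Their part in the Schlafen changes was not tested.

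Among the wild-type P0 libraries of this series, Slfn2 was again higher in HSC than in HPC, by 3.20-fold (log2 difference 1.68, SE 0.32, edgeR adjusted p = 0.000172). Slfn8 was also higher in HSC (0.72, SE 0.27, edgeR adjusted p = 0.0293), a call lost in 3 of 9 fits without 1 library. These are 2 of 5 tested members beside 54.2% of 17191 genes, and the code prefixes of the 2 cell types differ here too. Slfn3 and Slfn9, which differed between HSC and HPC at P0 in the age series, were not called here (log2 differences -0.47 and 0.50, edgeR adjusted p = 0.0734 and 0.0845). Slfn8 had the opposite sign at P0 in the age series, lower in HSC (log2 difference -0.56, limma adjusted p = 0.0872). It was not called there, nor in 6 of 8 fits without 1 library.

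The P14 libraries need a remark before their results. In the Ifnar +/-, Flt3 +/+ group, Flt3 RNA was 13.4, 140.5, 13.9 and 20.7 RPKM, and RNA of Kit, the stem cell factor receptor of progenitors, was 16, 218.8, 13.6 and 55.2 RPKM. Replicate 2 thus resembles the Ifnar -/-, Flt3 +/+ libraries (Flt3 78.4, 133, 122 and 115 RPKM), and the other 3 stand apart from it. Replicate 1 also had 1752 RPKM of Mpo and 2171 RPKM of Elane, where the other P14 libraries of the genotype series had 32.3 to 974 RPKM of Mpo and 0 to 99.7 RPKM of Elane. The P14 HPC of the age series had 494 to 4414 RPKM of Mpo and 135.6 to 3060 RPKM of Elane. The summed neutrophil markers ran from 3.058 to 56.95 RPKM in this group. What these values contribute to the P14 results was not tested. In the Ifnar -/-, Flt3 ITD/+ group Flt3 was 17, 45.3, 57.8, 40.5 and 16.1 RPKM and in the Ifnar +/-, Flt3 ITD/+ group 70.5, 69.6, 55.8 and 56.1 RPKM. Log2 fold changes of the members that rest on the Ifnar +/-, Flt3 +/+ group are therefore given with all 4 libraries and with its replicate 2 alone, a lone library assumed to vary like the other groups. That choice was made after the data were seen.

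Ifnar1 RNA did not check the labels at P14 either, at 7.20 to 9.15 RPKM in Ifnar -/-, Flt3 ITD/+ against 7.58 to 9.83 RPKM in Ifnar +/-, Flt3 ITD/+, and at 9.15 to 10.5 RPKM in Ifnar -/-, Flt3 +/+ against 4.30, 8.77, 2.85 and 6.15 RPKM in Ifnar +/-, Flt3 +/+. The mean log2 level of the interferon response list was 2.27 to 2.40 in Ifnar -/-, Flt3 ITD/+, 3.87 to 5.26 in Ifnar +/-, Flt3 ITD/+, 2.39 to 2.68 in Ifnar -/-, Flt3 +/+ and 3.13 to 3.89 in Ifnar +/-, Flt3 +/+. Both groups labelled Ifnar -/- lay below both groups labelled Ifnar +/-.

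With the Flt3 ITD allele present, HPC labelled Ifnar -/- had less Slfn5 and Slfn8 than HPC labelled Ifnar +/-, and Slfn2 was not called. Slfn5 was 0.218, 0.429, 0.107, 0.757 and 0.71 RPKM in Ifnar -/-, Flt3 ITD/+, against 1.33, 3.53, 5.71 and 4.15 RPKM in Ifnar +/-, Flt3 ITD/+, an 8.52-fold fall (log2 fold change -3.09, SE 0.52, edgeR adjusted p = 0.00207). Slfn8 was 3.50, 4.13, 3.70, 2.67 and 2.20 RPKM in Ifnar -/-, Flt3 ITD/+, against 10.4, 15.9, 18.6 and 18.48 RPKM in Ifnar +/-, Flt3 ITD/+, a 5.08-fold fall (log2 fold change -2.34, SE 0.37, edgeR adjusted p = 0.000974). For both genes the groups did not overlap. Slfn2 was 37.6, 33.8, 25.3, 36.6 and 40.9 RPKM in Ifnar -/-, Flt3 ITD/+, against 22.5, 42.2, 67.9 and 64.3 RPKM in Ifnar +/-, Flt3 ITD/+. The lowest library of the comparison was the first Ifnar +/- one, the ranges overlapped, and the log2 fold change was -0.56 (SE 0.28, edgeR adjusted p = 0.286). Slfn9 was 7.96, 8.56, 7.73, 5.86 and 2.61 RPKM in Ifnar -/-, Flt3 ITD/+, against 11.6, 12.8, 14.4 and 11.2 RPKM in Ifnar +/-, Flt3 ITD/+, without overlap but not called (log2 fold change -0.98, SE 0.35, edgeR adjusted p = 0.128). Slfn3 was not called either (-0.44, SE 0.22, edgeR adjusted p = 0.276). The 2 of 5 tested members called compare with 4.03% of 17464 genes. Of the interferon response list 47 of 52 genes were lower and 0 higher (median log2 fold change -1.956). Of the neutrophil markers 1 of 5 was higher (summed 5.251 to 9.233 RPKM in Ifnar -/-, Flt3 ITD/+ against 2.296 to 3.696 RPKM in Ifnar +/-, Flt3 ITD/+), while Mpo was 76.3 to 215.7 against 379.2 to 974 RPKM. Whether these bear on the Schlafen values was not tested.

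Without the ITD allele, Slfn2 was the member called. It had 2.65, 4.52, 4.80 and 3.45 RPKM in Ifnar -/-, Flt3 +/+, against 12.9, 12.4, 9.55 and 13.1 RPKM in Ifnar +/-, Flt3 +/+. The groups did not overlap. The 4 Ifnar +/- libraries differed in Kit and Flt3, and the part of this in the Slfn2 values was not tested. The fall was 3.49-fold (log2 fold change -1.80, SE 0.30, edgeR adjusted p = 0.00725), and it was called in each of 8 fits without 1 library. These Slfn2 values also entered the Flt3 ITD contrast by which the family was chosen in part. The p-value and the fits are therefore not independent of that choice and add no support. With replicate 2 alone as the Ifnar +/- library the log2 fold change was -1.71 (edgeR adjusted p = 0.499), in a fit that called 16 genes in all. Slfn8 was 7.72, 4.97, 3.93 and 4.09 RPKM in Ifnar -/-, Flt3 +/+, against 2.78, 13.7, 2.38 and 7.02 RPKM in Ifnar +/-, Flt3 +/+ (log2 fold change -0.47, SE 0.38, edgeR adjusted p = 0.413). Against replicate 2 alone it was -1.46 (edgeR adjusted p = 0.287). Slfn5 was 0.573, 0.323, 0.393 and 0.28 RPKM in Ifnar -/-, Flt3 +/+, against 0.472, 1.57, 0.442 and 1.07 RPKM in Ifnar +/-, Flt3 +/+ (log2 fold change -1.35, SE 0.54, edgeR adjusted p = 0.11, and -2.06 against replicate 2 alone). Slfn9 was 14.6, 9.15, 11.2 and 8.31 RPKM in Ifnar -/-, Flt3 +/+, against 3.63, 12.6, 2.38 and 4.40 RPKM in Ifnar +/-, Flt3 +/+ (log2 fold change 0.77, SE 0.37, edgeR adjusted p = 0.166, and -0.27 against replicate 2 alone). Slfn8, Slfn5 and Slfn9 were all highest in replicate 2 within the Ifnar +/-, Flt3 +/+ group.

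Without that replicate 2, the log2 fold changes of Slfn3 (0.97, edgeR adjusted p = 0.00372) and Slfn9 (1.41, edgeR adjusted p = 0.00146) passed the threshold, so that 3 of 5 tested members were called, beside 34.9% of all genes in that fit. With all 4 libraries 1 of 5 was called, Slfn2, whose values entered the choice of the family, beside 4.39% of all genes. Slfn3 then had a log2 fold change of 0.76 (SE 0.23, edgeR adjusted p = 0.0572), and of 0.30 against replicate 2 alone. With the replicate block, 2 members were called. Of the interferon response list 27 of 52 genes were lower and 0 higher (median log2 fold change -1.1), led by Ifi27 (log2 fold change -3.83, edgeR adjusted p = 5.11e-07). Against replicate 2 alone, 8 were lower and 0 higher (median -0.983).

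**Figure D4:**
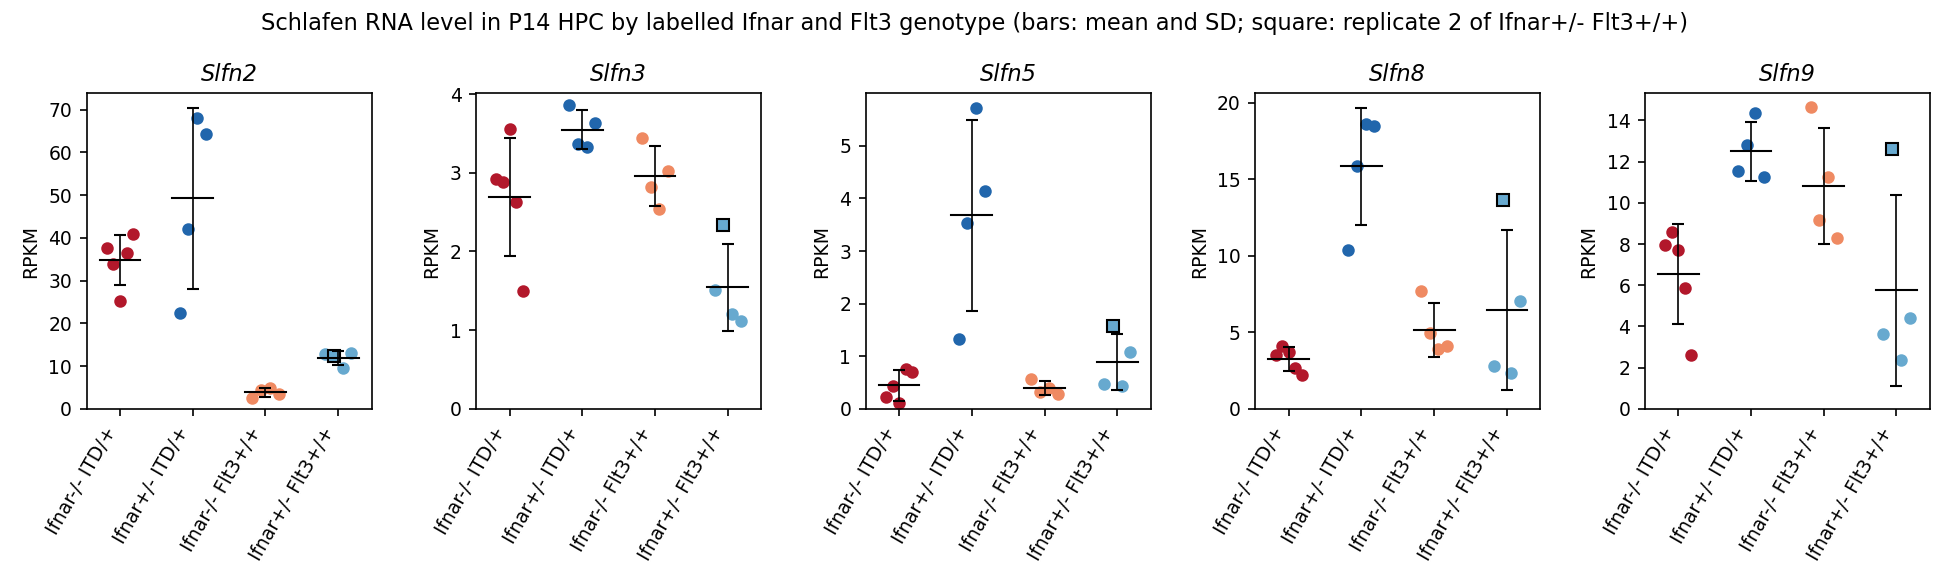
RNA level in RPKM (y) of the 5 tested Schlafen genes in P14 HPC by labelled genotype (x), with points for libraries and bars for mean and SD. Slfn2 is at 22.5 to 67.9 RPKM with the ITD allele and at 2.65 to 13.1 RPKM without it, while Slfn5 and Slfn8 are highest in Ifnar +/-, Flt3 ITD/+.

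The values by Flt3 allele chose the family in part and are given here as a description. The separation of libraries and the ranges without 1 library come from these same values, so they add no support to the difference. Slfn2 was higher with the ITD allele on both Ifnar backgrounds, and its 9 ITD libraries (22.5 to 67.9 RPKM) all lay above its 8 Flt3 +/+ libraries (2.65 to 13.1 RPKM). Within Ifnar -/-, it averaged 34.8 ± 5.92 RPKM with ITD and 3.86 ± 0.992 RPKM with Flt3 +/+ (SD, n = 5 and 4), a log2 fold change of 3.23 (SE 0.31, range 3.05 to 3.36 without 1 library). Within Ifnar +/-, it averaged 49.2 ± 21.1 RPKM with ITD and 12 ± 1.65 RPKM with Flt3 +/+ (SD, n = 4 each), a log2 fold change of 1.98 (SE 0.30, range 1.76 to 2.25 without 1 library, 2.08 against replicate 2 alone). The difference between the 2 backgrounds was not tested. Ifnar -/-, Flt3 ITD/+ against Ifnar +/-, Flt3 +/+ gave 1.43 (SE 0.29, range 1.35 to 1.53 without 1 library, 1.52 against replicate 2 alone). These contrasts share libraries with each other and with the Ifnar contrasts above.

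The other members differed between the backgrounds in their values. Within Ifnar -/-, the log2 fold change with ITD was 0.29 for Slfn5 (SE 0.51), -0.59 for Slfn8 (SE 0.36), -0.65 for Slfn9 (SE 0.35) and -0.07 for Slfn3 (SE 0.22), and the libraries of all 4 overlapped. With the replicate number as a block, Slfn5 was at -0.23 and Slfn3 at 0.07. No label pairs these libraries, although same-numbered ones deviated together here (r of 0.111 to 0.416 over 4 pairs). Within Ifnar +/-, it was 2.04 for Slfn5 (SE 0.54), 1.29 for Slfn8 (SE 0.39), 1.11 for Slfn9 (SE 0.37) and 1.14 for Slfn3 (SE 0.23). Against replicate 2 alone these became 1.32 for Slfn5, 0.29 for Slfn8, 0.05 for Slfn9 and 0.66 for Slfn3. Slfn3 had 3.86, 3.37, 3.33 and 3.63 RPKM in Ifnar +/-, Flt3 ITD/+, against 1.52, 2.34, 1.21 and 1.12 RPKM in Ifnar +/-, Flt3 +/+. Slfn1 had 4, 8, 28 and 15 reads in Ifnar +/-, Flt3 ITD/+ (0.0347, 0.0649, 0.257 and 0.119 RPKM), and each other P14 library had 0 or 1 read. In these contrasts 0.962% of all genes were called within Ifnar -/-, 4.84% within Ifnar +/- and 1.88% between Ifnar -/-, Flt3 ITD/+ and Ifnar +/-, Flt3 +/+, from which nothing is read for the members. Of the interferon response list, 1 of 52 genes was higher and 0 lower within Ifnar -/- (median log2 fold change -0.26), and 24 were higher and 0 lower within Ifnar +/- (median 1.27). Against replicate 2 alone, 0 of 52 passed the edgeR threshold in that contrast (median 0.922). Slfn2 made up a median 72.1% of the summed member RPKM in Ifnar -/-, Flt3 ITD/+, 57.9% in Ifnar +/-, Flt3 ITD/+, 19.4% in Ifnar -/-, Flt3 +/+ and 54.4% in Ifnar +/-, Flt3 +/+.

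**Figure D5:**
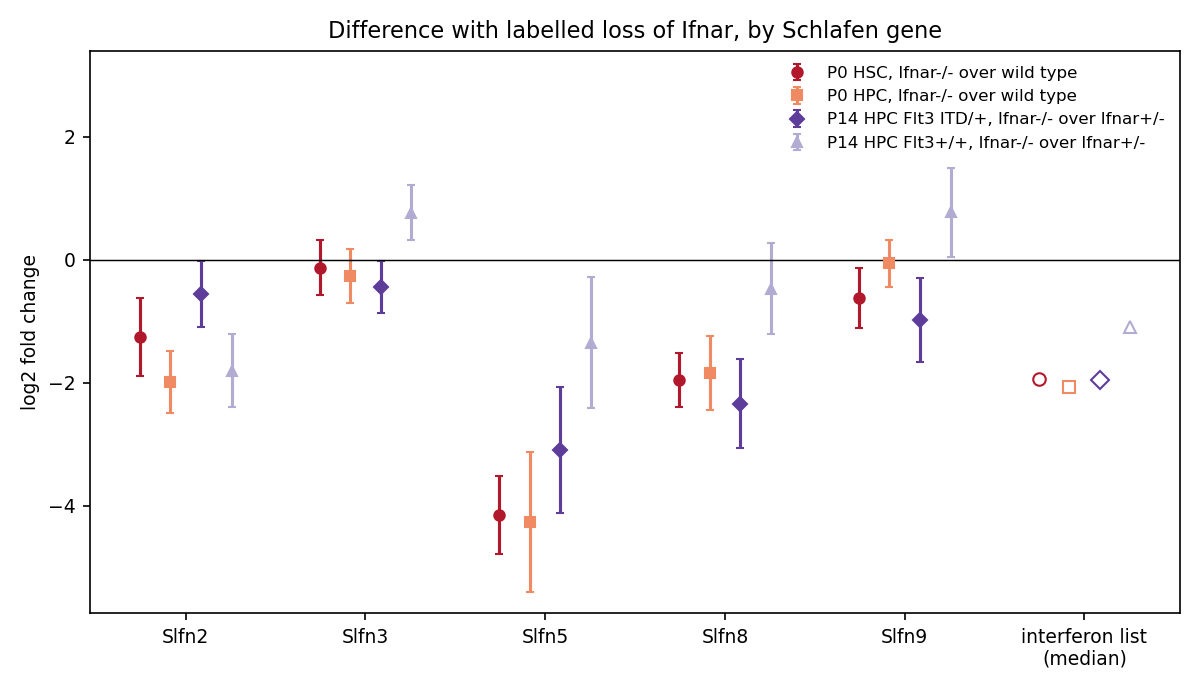
Log2 fold change (y) of each tested Schlafen gene between libraries labelled Ifnar -/- and their wild-type or Ifnar +/- counterparts, in 4 comparisons, with bars for the 95% interval and open symbols for the median of the interferon response list. Slfn5 lies lowest in the P0 comparisons (-4.15 in HSC and -4.27 in HPC). Among the members within P0 HPC, Slfn9 (-0.06) and Slfn3 (-0.27) lie nearest to 0.

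Over the age series, the genes most like each member were found by Pearson r of the log2 level. It was computed for 12061 genes over the 26 HSC and, separately, the 20 HPC libraries, and genes were ranked by the smaller of the 2. The members were left out of the ranking, as were genes with no symbol or with the symbol of a predicted gene (Gm with digits, Rik or an accession). These correlations are a description, with no test, and the libraries share their ages, prefixes and depths. Slfn5 stood closest to Ifi44 (r 0.913 in HSC, 0.909 in HPC), the nuclear body protein gene Sp100 (0.853, 0.852) and the interferon-inducible GTPase gene Iigp1 (0.851, 0.873). Slfn8 stood closest to Eif2ak2, the double-stranded RNA-activated kinase PKR (0.871, 0.807), the guanylate-binding protein gene Gbp7 (0.804, 0.866) and the RNA sensor gene Ifih1 (0.803, 0.88). For Slfn2 they were Socs2, an inhibitor of cytokine signalling (0.738, 0.739), the interferon-induced membrane protein gene Ifitm1 (0.855, 0.689) and Dlg3 (0.64, 0.659). Slfn3 stood closest to the histone chaperone gene Nasp (0.732, 0.707), the mitotic kinesin gene Kif15 (0.702, 0.756) and the splicing factor gene Prpf31 (0.703, 0.697). Slfn9 stood closest to Ccdc57 (0.74, 0.815), the exocyst gene Exoc4 (0.706, 0.859) and the clamp loader gene Rfc1 (0.675, 0.927). Among the members, Slfn5 and Slfn8 moved alike in both cell types (0.789 in HSC, 0.85 in HPC). Slfn2 went with Slfn5 (0.856) and Slfn8 (0.79) across HSC libraries and not across HPC libraries (-0.181 and -0.256). Slfn8 and Slfn9, the pair with the most similar promoters and shared transcript stretches, had r 0.232 in HSC and 0.644 in HPC.

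Of the 4 relatives outside the members, the pseudogene Slfn10-ps was the only one expressed above 1 RPKM on average. Its group means in the age series were 1.93 to 5.18 RPKM in HSC and 3.81 to 11.9 RPKM in HPC. It rose between E16 and E18 in HSC (log2 fold change 1.03, SE 0.29, limma adjusted p = 0.0376) and between E16 and P0 in HPC (1.65, SE 0.31, edgeR adjusted p = 0.00435). In HPC it was lower at P14 than at P7 (-0.89, SE 0.26, edgeR adjusted p = 0.0328). It was lower in P0 HPC labelled Ifnar -/-, with 5.25 ± 1.67 RPKM against 9.80 ± 3.91 RPKM in wild type (SD, n = 4 each, log2 fold change -0.96, SE 0.27, edgeR adjusted p = 0.0388). Because Slfn10-ps shares 19.7% of its 50-base words with other genes, mostly Slfn9 and Slfn8, its counts are uncertain. Slfn4, a partner of Slfn3 in the intermediate subgroup, Slfn14, which is known in platelets and red cells, and Slfnl1 averaged under 0.3 RPKM in every group.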

How the data were processed

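Bulk RNA of HSC and HPC was made into libraries after Qiagen RNAeasy micro plus extraction, per the labels' protocols, and read with STAR and featureCounts 1.4.5 of Subread, per the submitters' processing notes. Build, annotation and strand setting are not given in the sources used here. The authors deposited raw counts per gene for the HPC ages and the genotype series, and RPKM for the HSC ages. All these RPKM values came out as whole reads for the 25622 detected genes (100%, tolerance 1e-05), with exon lengths from GENCODE M21 for 16638 of them. For the other 8984, Slfn3, Slfn5 and Slfn9 among them, the length was inferred from these same values, so that whole reads are partly given by construction. Counts were divided by the same exon lengths to give RPKM for display. 2 rows that name no mouse gene (at most 0.000144% of reads) and 1 column that matches no sample were not used.

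HSC ages and HSC against HPC were tested with limma 3.58.1 on log2(TMM-scaled RPKM + 0.5), over genes above 1 RPKM in at least 3 libraries, so fold changes of low genes are understated. HPC ages and genotypes were tested with edgeR 4.0.16 (quasi-likelihood, TMM, filterByExpr), with SE taken as the size of the log2 fold change over the square root of F. Adjusted p is by Benjamini-Hochberg, with a threshold of 0.05. The scripts were tested on simulated data. Alternatives were other scalings, filters and pseudocounts (0.1 and 1), edgeR on recovered reads, DESeq2 1.42.0, a replicate block and leaving out each library. No pair of libraries of the same group agreed within sampling noise, and libraries of different groups were not compared in this way. Same-numbered libraries deviated together (every pair's r over 0.1) only between Ifnar -/-, Flt3 ITD/+ and Ifnar -/-, Flt3 +/+, with r of 0.111 to 0.416 over 4 pairs.

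The members and the gene lists were chosen with earlier results of these data known. By rule, the text names the 6 members, 4 relatives, Ifnar1 and Flt3 as label checks, the 3 genes most like each member, and up to 4 called interferon genes with the smallest adjusted p per comparison.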

Additional observations from a re-analysis of the deposited data

Results flagged for a closer look

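Of 94 sets of 4 to 10 libraries checked for a value far from the rest, 10 held one. Without Slfn1 these were 4 of 85 sets, or 4.71%, where chance gives about 1 in 20. For Slfn5, replicate 4 of HSC E16 had 1.083 RPKM (the others 0.3391 to 0.407), and replicate 5 of wild-type P0 HSC had 8.463 RPKM (the others 4.53 to 5.029). The same wild-type library was also highest for Slfn8, at 16.94 RPKM against 13.3 to 14.11 RPKM in the others. For Slfn2, replicate 2 of adult HSC had 189.6 RPKM, against 150.3 to 157 RPKM in the others.

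The other 6 concern Slfn1, which is at or near 0 everywhere, so that a library with any read among libraries at 0 always stands out. Adult HSC replicate 3 had 0.3279 RPKM, where the others had 0. P0 HSC labelled Ifnar -/- had 0.02317 RPKM in replicate 2 and 0 in the others. Wild-type P0 HSC had 0 in replicate 4 and 0.0116 to 0.01448 RPKM in the others. At P14, single libraries stood out at 0.008599 RPKM in Ifnar -/-, Flt3 ITD/+ (replicate 5), 0.007196 RPKM in Ifnar -/-, Flt3 +/+ (replicate 1) and 0.005825 RPKM in Ifnar +/-, Flt3 +/+ (replicate 4), each a single read.

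Between cell types, the change of Slfn2 from E16 to adult differed, by 2.822 on the log2 scale in HSC minus HPC (limma adjusted p = 1.54e-06).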

How the results depend on the processing

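Of 44 called changes of members, 33 were called under every alternative run and 11 were lost under at least 1, and no called change turned its direction. The number of members called moved by over 1.5 times in 7 of 123 values under another setting. It was 2 in place of 1 for HSC P14 against P7 without scaling, 2 in place of 1 for HPC P0 against E16 with DESeq2, 2 in place of 1 for HSC against HPC at E16 with a pseudocount of 0.1, and 0 in place of 2 for HSC adult against P0 without a filter. For Ifnar -/- against Ifnar +/- with Flt3 +/+ it was 3 with DESeq2, 2 with the replicate block and 0 with replicate 2 alone, in place of 1. Leaving out 1 library gave 0 to 1 called members for HSC P7 against P0, HSC adult against P14, HPC P7 against P0 and HSC against HPC at E16. It gave 1 to 2 for HSC P14 against P7, HPC P0 against E16 and HSC against HPC in adults, 0 to 2 for HSC adult against P0, and 1 to 3 for wild-type P0 HSC against HPC and for Ifnar -/- against Ifnar +/- with Flt3 +/+. The cause was not tested.

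With the replicate number as a block, the numbers not pairing the libraries in these comparisons, Slfn2 in P0 HSC labelled Ifnar -/- was called (log2 fold change -1.34, edgeR adjusted p = 0.0173), as were Slfn9 in HPC adult against P14 (0.0279), Slfn3 in wild-type P0 HSC against HPC (0.0422) and Slfn3 in Ifnar -/- against Ifnar +/- with Flt3 +/+ (0.0479). The block lost Slfn9 in HPC adult against E16 (0.053) and in HSC against HPC at P14 (0.128). Slfn8 in HSC P0 against E18 was lost with a pseudocount of 0.1 (0.0553), without a filter (0.113) and on recovered reads (0.0731). Slfn1 had too few reads to be tested in any comparison.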
